A study of Sus scrofa with 2 samples.

Results

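Iron handling genes were followed across the cell cycle in cultured porcine adipose-derived stem cells (ADSCs), the fibroblast-like progenitors that grow out of digested fat. The 4 genes are LCN2, FTH1, FTL and TFRC, of 28155 genes in the count tables, and each matched 1 row by its symbol. They were chosen by their measured levels in cycling and non-cycling cells, among other results of these data known earlier. The comparison of cycling with non-cycling cells is therefore given for them as a description, with no test. The study holds 1 group of 2 single-cell RNA libraries, numbered 1 and 2, from healthy Bama miniature pigs. The tissue was fat of the chest, its cells were grown for 3 generations within 14 days and frozen, and no treatment or altered gene is given for either library. Whether separate animals or cultures gave the libraries is not in the labels. In the main fits the p-values thus rest only on how far differences between cell classes disagree between these libraries, pooled in part over genes. That disagreement may be technical.

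Ferritin is the iron store of the cell, a hollow shell built from heavy chains (FTH1), which oxidise iron, and light chains (FTL), which help it to mineralise. TFRC, the transferrin receptor, brings iron in from the blood protein transferrin, and proliferating cells are known to carry more of it. LCN2 (lipocalin 2) binds siderophores, the small iron carriers that bacteria secrete, and is released by neutrophils, epithelia and stromal cells as part of innate defence. In mammals iron regulatory proteins bind hairpins in these messages, blocking ferritin translation and stabilising TFRC mRNA when iron is short, so ferritin protein and ferritin mRNA need not move together. Iron is also a cofactor of ribonucleotide reductase, the enzyme that supplies DNA precursors in S phase.

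In the RefSeq annotation of Sscrofa11.1, the build that the submitters' processing notes name, LCN2 lies on chromosome 1 (268609975 to 268614651), FTH1 on chromosome 2 (9535051 to 9537979), FTL on chromosome 6 (54231121 to 54232756) and TFRC on chromosome 13 (133976765 to 133997554), all as protein-coding genes. The coordinates span whole genes, with exons, introns and untranslated regions. Ferritin genes have many processed copies in mammalian genomes, and how the authors' counting shared reads among such copies is not given in the sources used here.

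Of 12251 barcodes in library 1 and 12956 in library 2, 10559 (86.2%) and 11984 (92.5%) had at least 1000 genes and were kept as cells. They held a median of 19845 and 19651.5 unique molecular identifiers (UMIs, tags that count each captured molecule once), and 35 kept barcodes occurred in both libraries. The cells carried a stromal profile: 11 of 12 stromal markers reached 10 CPM (counts per 1000000 UMIs) in each library. Of cells known to be rich in these members, neutrophil markers (8 of 8) and erythroid markers (7 of 7) were all under 1 CPM in each library. Their summed level was 0.453 and 0.493 CPM for neutrophils and 0.238 and 0.159 CPM for erythroid cells. Of 10 macrophage markers 6 and 9 were under 1 CPM, but CD14 (25.4 and 21.7 CPM) and, in library 1, ITGAM (30.2 CPM) were not. KRT7 and KRT19 reached 10 CPM among 8 epithelial markers, PECAM1 and ERG among 8 endothelial markers and none among 8 fat cell markers. Summed macrophage markers were at 59.1 and 22.8 CPM in cycling cells, graded by cycle genes, against 63.8 and 25.9 CPM in non-cycling cells, and their part in the results was not tested.

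Ferritin messages were abundant in both libraries, and LCN2 and TFRC were scarce. Over all cells FTH1 was at 8229 CPM (exact Poisson 95% interval 8216 to 8241) in library 1 and 8709 CPM (8697 to 8721) in library 2. FTL was at 3800 CPM (3792 to 3808) in library 1 and 3787 CPM (3779 to 3795) in library 2. LCN2 was at 17.2 CPM (16.7 to 17.8) in library 1 and 22.9 CPM (22.3 to 23.5) in library 2. TFRC was at 10.4 CPM (9.97 to 10.8) in library 1 and 5.68 CPM (5.39 to 5.99) in library 2. The log2 ratio of library 1 over library 2 was thus 0.87 for TFRC, -0.41 for LCN2, -0.08 for FTH1 and 0.0049 for FTL. These ratios set 1 library against 1 and cannot be checked by replicates, and all intervals given here cover counting error only.

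To place cells in the cycle at equal depth, 5000 UMIs were drawn at random from each cell, and 978 and 386 cells below that depth were set aside. Cells were then graded by how many of 15 core cycle genes, such as MKI67, TOP2A and CDK1, had a UMI. None of the 15 is in the list of replication genes used for S phase below, and many, such as CCNB1, PLK1 and BUB1, act in G2 and mitosis. Cells in G1 or early S phase can thus fall in the low grades. Those with at least 3 were called cycling, 3819 of 9581 cells in library 1 (39.9%) and 4601 of 11598 in library 2 (39.7%). Those with none were called non-cycling, 1881 (19.6%) and 2498 (21.5%). The grade is a range and not a cell type: just outside it 1360 and 1552 cells showed 2 core genes, and just inside it 697 and 784 showed 3. The class came from thinned cells and the levels from their full counts. At full counts only 456 and 544 cells, shallow ones included, had no core gene UMI, so most cells called non-cycling held some. Non-cycling thus stands for no core gene detected at 5000 UMIs, not for cells known to be out of the cycle.

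LCN2 was the member most tied to the cycle. It was at 5.69 CPM in cycling cells of library 1 and 8.11 CPM in those of library 2, against 35.1 and 50.2 CPM in non-cycling cells. The log2 ratio of cycling over non-cycling cells was -2.62 in library 1 and -2.63 in library 2. Library 2 was higher in both classes, yet the ratio was nearly equal. Both values of cycling cells lay below both values of non-cycling cells, but this contrast chose the members, so that separation is no support. On the scale of the edgeR fit, which scales libraries by TMM (trimmed mean of M-values), the difference was -2.69 for LCN2, -0.37 for FTH1, -0.31 for FTL and 0.28 for TFRC.

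The level of LCN2 stepped down with each grade. In library 1 it was 35.1, 22.5, 8.25, 4.96 and 2.35 CPM in cells with 0, 1 to 2, 3 to 5, 6 to 9 and 10 to 15 core genes. In library 2 it was 50.2, 25.2, 9.28, 7.95 and 6.55 CPM in the same order. The Poisson intervals of neighbouring grades were separate up to 3 to 5 core genes in both libraries, and beyond that in library 1, where the highest grade rested on 43 UMIs. In library 2 the upper 3 grades had overlapping intervals with their neighbours (8.33 to 10.3, 7.14 to 8.82 and 5.54 to 7.68 CPM). The grades follow the contrast that chose the members, so separate intervals are no support. These intervals also take UMIs as independent, while LCN2 was spread unevenly over cells, so they are too narrow.

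**Figure D1:**
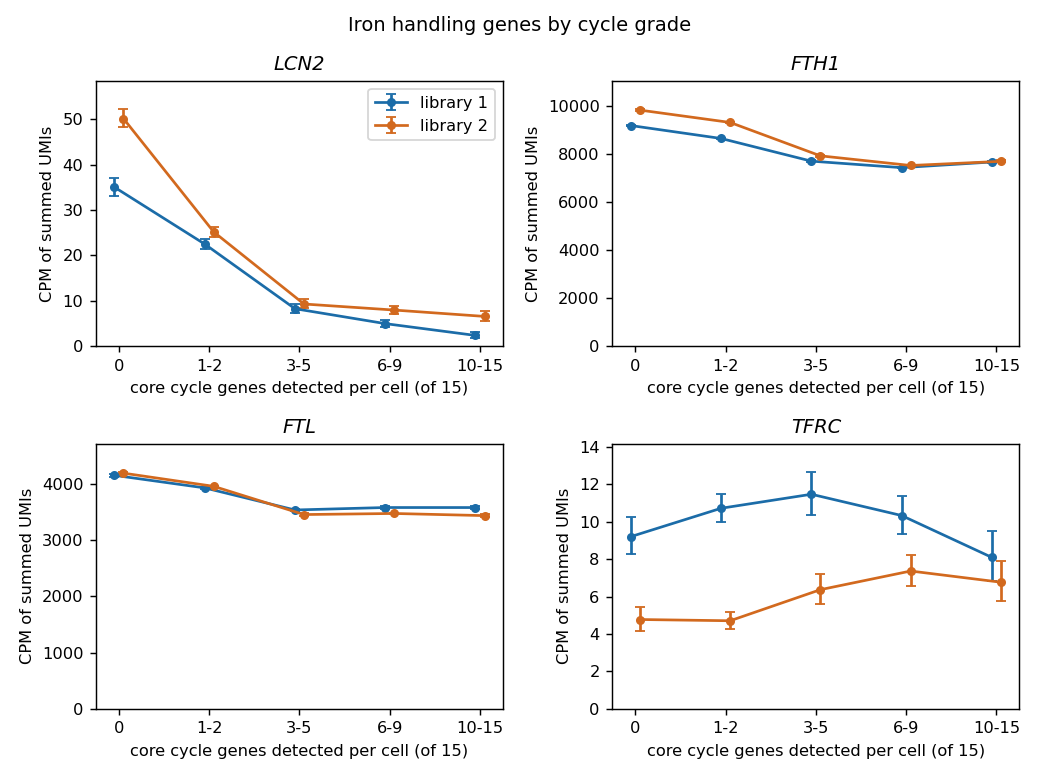
Level of each gene (CPM of UMIs summed over cells, from 0) by the number of core cycle genes detected per cell (of 15), for library 1 and library 2, with exact Poisson 95% intervals as bars. LCN2 is highest in cells with 0 core genes (35.1 and 50.2 CPM), FTH1 and FTL step down until 3 to 5 core genes and then level off, and TFRC is lowest at the low grades in library 2.

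Few cells carried most of the LCN2. After thinning 10.8% of non-cycling cells of library 1 (exact binomial 95% interval 9.48 to 12.3) and 12.9% of library 2 (11.6 to 14.3) had a LCN2 UMI. The share was 1.57% (0.757 to 2.87) and 2.14% (1.27 to 3.35) in cells with 10 to 15 core genes, and 1.41% and 2.22% with 6 to 9. All these cells were at the same depth. No cell type that should lack LCN2 was identified, so how much of these lowest shares is free RNA was not tested.

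Among non-cycling cells the 5% with the most LCN2 held 70.6% of its thinned UMIs in library 1 and 68.7% in library 2. The variance of LCN2 over its mean was 3.37 and 3.57, where independent counts at 1 rate give about 1, and the highest cell held 17 of 5000 UMIs in each library. For TFRC the variance over mean was 1.09 and 1.10 in the same cells, at a lower mean (0.046 and 0.026 UMIs per cell, against 0.197 and 0.257 for LCN2), which draws this ratio towards 1. Fewer than 5% of these cells had a TFRC UMI, so the top 5% held 100% of its UMIs, the spread of both genes cannot be ranked from these values, and no non-cycling cell held more than 3 UMIs in library 1 or 2 in library 2.

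**Figure D2:**
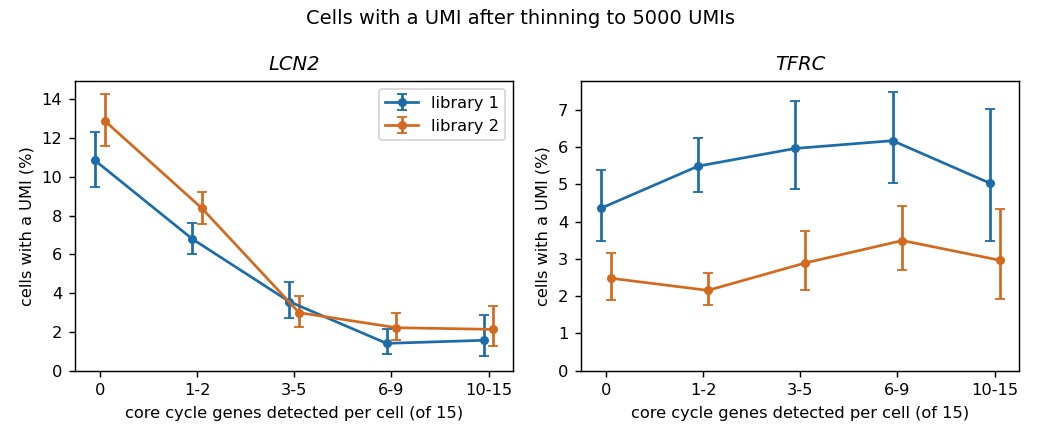
Share of cells with at least 1 UMI of LCN2 or TFRC after thinning every cell to 5000 UMIs (%, from 0), by the number of core cycle genes detected per cell, for library 1 and library 2, with exact binomial 95% intervals as bars. The LCN2 share is highest in cells with 0 core genes (10.8% and 12.9%) and lowest in cycling cells, and the TFRC share stays between 2.16% and 6.17% over all grades.

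Messages of both ferritin chains were lower in cycling cells of both libraries, by less than LCN2 was. FTH1 was at 7577 CPM in cycling cells of library 1 and 7698 CPM in those of library 2, against 9179 and 9822 CPM in non-cycling cells, a change of -17.5% and -21.6%. FTL was at 3565 and 3460 CPM in cycling cells, against 4154 and 4193 CPM in non-cycling cells, a change of -14.2% and -17.5%. For both chains the 2 values of cycling cells lay below both values of non-cycling cells, which is no support, as this contrast chose the members. With classes set from full counts, where non-cycling cells were much shallower, the fitted difference was -0.12 for FTH1 and -0.065 for FTL. In cells of middle depth, ranked by UMIs in each library and chosen as an alternative after seeing the data, it was -0.46 and -0.37. The main fit gave -0.37 for FTH1 and -0.31 for FTL. Median depth was 22778 and 20672 UMIs in cycling cells and 19561 and 19982.5 in non-cycling cells, and since CPM are shares, less ferritin message and a larger total of other messages cannot be told apart.

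The largest step between neighbouring grades lay between 1 to 2 and 3 to 5 core genes for both ferritin chains. FTH1 was at 9179, 8641, 7697, 7426 and 7662 CPM in library 1 from the lowest to the highest grade, and at 9822, 9308, 7918, 7517 and 7690 CPM in library 2. FTL was at 4154, 3931, 3538, 3581 and 3581 CPM in library 1 and at 4193, 3958, 3456, 3475 and 3437 CPM in library 2. Among the 3 cycling grades the FTH1 levels thus stayed within 7426 to 7918 CPM and those of FTL within 3437 to 3581 CPM. The libraries were closer to each other in the cycling grades than in cells with 0 core genes for FTH1.

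Quartiles moved with the medians. At 5000 UMIs per cell, cycling cells held a median of 36 FTH1 UMIs in library 1 (quartiles 29 and 45) and 37 in library 2 (30 and 46), against 43 (33 and 54) and 48 (39 and 58) in non-cycling cells. For FTL the medians were 17 (13 and 22) and 16 (12 and 21) in cycling cells, against 19 (14 and 25) in non-cycling cells of each library. The variance of FTL over its mean was 2.97 and 3.07 in cycling cells and 4.32 and 5.77 in non-cycling cells. Non-cycling cells had a longer upper tail, with up to 118 and 183 FTL UMIs (1 cell in each library), where no cycling cell exceeded 62 and 59. That tail was not particular to non-cycling cells. Cells with 1 to 2 core genes reached 240 FTL UMIs in library 1 and 112 in library 2.

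**Figure D3:**
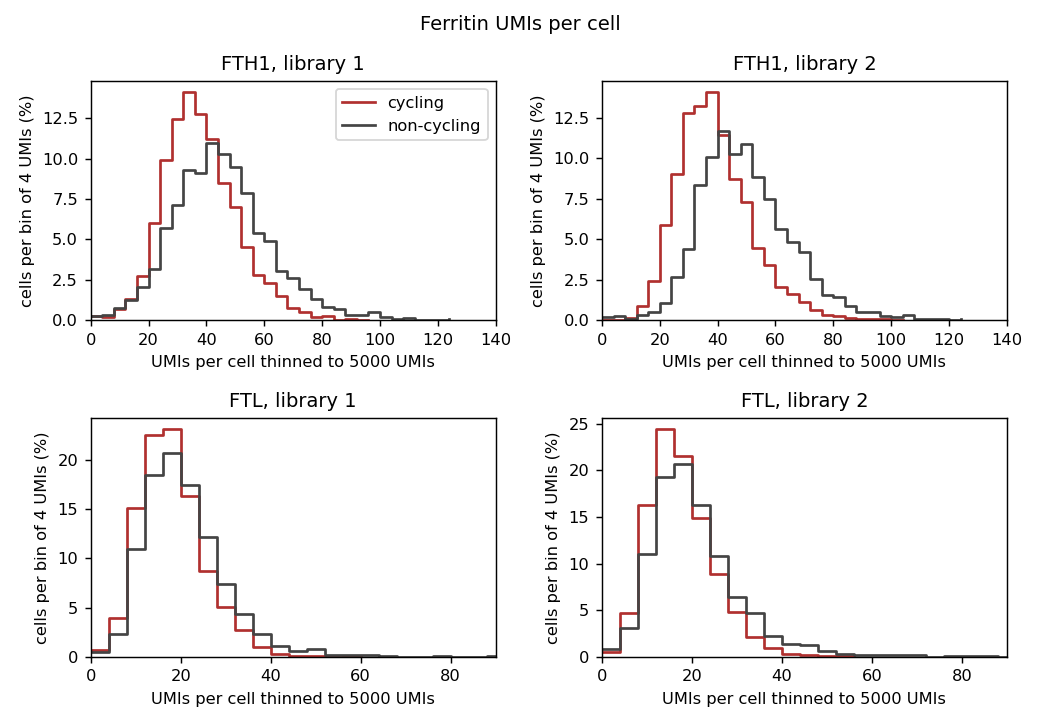
Share of cells (%) per bin of 4 UMIs of FTH1 or FTL, after thinning every cell to 5000 UMIs, for cycling and non-cycling cells of library 1 and library 2. The curves of cycling cells lie to the left of those of non-cycling cells (median FTH1 of 36 and 37 against 43 and 48 UMIs), and the axes end before the few highest cells.

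Both chains moved in near proportion. FTH1 made up 68.7% of FTH1 plus FTL UMIs in cells with 0 core genes of library 1 and 67.7% in cells with 10 to 15. In library 2 it made up 70.7% and 69.1% at the same grades. These are shares of tagged 3' ends, not of protein chains, and the median cell at 0 core genes stood at 69.5% (quartiles 61.25 and 76.6) in library 1 and at 72.0% (64.2 and 78.7) in library 2, so cells of 1 grade, with the noise of counting included, were spread more widely than the grades were.

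TFRC was higher in cycling than in non-cycling cells of both libraries, in the contrast that chose the members, but the order of its grades differed between libraries. It was at 10.3 CPM in cycling cells of library 1 (Poisson interval 9.66 to 10.99) and 6.88 CPM in those of library 2 (6.38 to 7.40), against 9.20 (8.25 to 10.2) and 4.77 CPM (4.18 to 5.42) in non-cycling cells. The log2 ratio was 0.16 in library 1 and 0.53 in library 2, and the classes overlapped across libraries because every TFRC value of library 1 lay above those of library 2. In library 1 TFRC was at 9.20, 10.7, 11.5, 10.3 and 8.09 CPM from the lowest to the highest grade. In library 2 it was at 4.77, 4.70, 6.37, 7.36 and 6.76 CPM. The highest grade was thus below the lowest one in library 1 and above it in library 2, with overlapping intervals in library 1 (6.84 to 9.50 against 8.25 to 10.2 CPM).

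Cells set aside for having fewer than 5000 UMIs had less FTH1 and FTL and more TFRC than the deeper ones in both libraries. FTH1 was at 5283 and 6113 CPM in these shallow cells, against 8268 and 8721 CPM in the deeper cells. FTL was at 3109 and 2731 CPM in shallow cells, against 3809 and 3792 CPM in deeper cells. TFRC was at 20.8 CPM (15.8 to 27.0) and 11.95 CPM (6.54 to 20.1) in shallow cells, on 57 and 14 UMIs, against 10.3 and 5.65 CPM in deeper cells. LCN2, on 28 and 20 UMIs, was at 10.2 CPM (6.79 to 14.8) and 17.1 CPM (10.4 to 26.4) in shallow cells, against 17.3 and 22.9 CPM in deeper cells, so in library 2 no difference was detectable at this depth.

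The members were then tested in contrasts other than the one that chose them, first between phases inside the cycling cells. Cycling cells were ranked in each library by the share of S phase UMIs (31 replication genes) among S phase plus late G2 and M phase UMIs (24 genes), and those ranked highest (S-rich) were set against as many ranked lowest (M-rich), 1271 cells each in library 1 and 1529 in library 2, with the middle of the ranking left out. S-rich thus stands for cells rich in S phase UMIs among those with at least 3 core genes, not for S phase as a whole. Both classes are ranges, with cut points at 31.8% and 50% in library 1 and 29.4% and 50% in library 2, and 1210 and 1454 cells within 5 percentage points of one. A gene was called when its adjusted p was under 0.05 (edgeR quasi-likelihood, Benjamini-Hochberg over all genes), its log2 fold change was 0.5 or more in size and the libraries shared its sign. Of 15360 genes 7.24% were called, 4.9% higher and 2.34% lower in S-rich cells. Median depth was 24444 and 21250 UMIs in S-rich cells and 21437 and 19852 in M-rich cells, and its part in the results was not tested.

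No member was called between the phases (0 of 4 with edgeR and with DESeq2, with 2 at an unadjusted p under 0.05 in edgeR). FTH1 was at 7335 and 7619 CPM in S-rich cells, against 7894 and 7933 CPM in M-rich cells. Its log2 fold change of -0.10 ± 0.01 (SE of the edgeR fit, n = 2 libraries) had an adjusted p of 2.09e-06 in edgeR but was below the size required. FTL went the other way, at 3615 and 3547 CPM in S-rich cells, against 3494 and 3411 CPM in M-rich cells (0.04 ± 0.01, edgeR adjusted p = 0.00988). That p did not hold with DESeq2 (adjusted p = 0.626), with no filter (0.175), without the highest doublet scores (0.152) or without the replicate block (1), and for FTH1 it was 0.000225 with DESeq2 and 0.704 without the block. The difference in CPM was -7.08% and -3.96% for FTH1 and 3.47% and 3.99% for FTL, so the chains went opposite ways in each library.

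LCN2 and TFRC were too scarce in cycling cells for a narrow comparison of phases. LCN2 was at 6.37 and 7.83 CPM in S-rich cells, against 5.64 and 10.97 CPM in M-rich cells, with opposite signs in the libraries (-0.24 ± 0.15, edgeR adjusted p = 0.281). TFRC was at 10.8 and 7.44 CPM in S-rich cells, against 9.79 and 6.44 CPM in M-rich cells (0.16 ± 0.10, edgeR adjusted p = 0.252), higher in S-rich cells of both libraries. These LCN2 levels rested on 197 and 275 UMIs in S-rich cells and 167 and 373 in M-rich cells. After thinning, 1 M-rich cell of library 2 held 14 LCN2 UMIs. The share of cells with a LCN2 UMI was 2.28% and 2.75% in S-rich cells, against 2.36% and 2.49% in M-rich cells. In library 2 the share thus went the other way from the CPM.

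The second test asked whether the ferritins and TFRC differ with LCN2 inside non-cycling cells. Most of these cells held some core gene UMIs at full counts, and both LCN2 and FTH1 were highest in the lowest grade. The part that cycle differences left among these cells had in this test and the next was not tested. Non-cycling cells with a LCN2 UMI after thinning (204 and 322) were set against those without (1677 and 2176). LCN2 itself, which made the classes, was at 253 and 318 CPM in detected cells, against 10.99 and 10.54 CPM in undetected cells. Of 14370 genes 2.42% were called (1.47% higher and 0.953% lower), and none of the 3 other members was (0 of 3 with edgeR and with DESeq2, with 2 at an unadjusted p under 0.05 in edgeR).

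FTH1 was at 9986 and 10658 CPM in LCN2-detected cells, against 9090 and 9699 CPM in undetected cells. The log2 fold change was 0.17 ± 0.02 (edgeR adjusted p = 2.82e-06, n = 2 libraries) and nearly the same in each library (0.17 and 0.17), which is below the size required for a call. The adjusted p was 7.47e-05 with DESeq2 and 0.9999 without the replicate block. FTL was at 3904 and 4032 CPM in detected cells, against 4181 and 4217 CPM in undetected cells (-0.04 ± 0.02, edgeR adjusted p = 0.253). In cells of middle depth, an alternative chosen after seeing the data, FTL was at -0.12 with an edgeR adjusted p of 1.46e-05, still below the size required. TFRC, on 31 and 40 UMIs in detected cells, was at 8.40 and 6.25 CPM there, against 9.29 and 4.55 CPM in undetected cells, with opposite signs (0.20 ± 0.20, edgeR adjusted p = 0.718). Median depth was 17920.5 and 19279 UMIs in detected cells and 19800 and 20027 in undetected cells. Summed neutrophil markers stayed near 0, at 0.271 and 0.468 CPM in detected cells and 0.269 and 0.393 CPM in undetected cells.

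A last test split non-cycling cells by TFRC, with 82 and 62 detected against 1799 and 2436 undetected cells. TFRC itself, which made the classes, was at 71.3 and 57.5 CPM in detected cells, against 6.56 and 3.37 CPM in undetected cells. The detected cells held 108 and 74 TFRC UMIs, fewer than the 234 and 163 of undetected cells, so much of the split is sampling of a scarce message and few calls could be had from it. Of 14375 genes 0.195% were called (0.139% higher and 0.0557% lower), and of LCN2, FTH1 and FTL none was (0 of 3 with edgeR and with DESeq2, with 1 at an unadjusted p under 0.05 in edgeR). FTL was at 4077 and 3840 CPM in TFRC-detected cells, against 4157 and 4202 CPM in undetected cells (-0.13 ± 0.03, edgeR adjusted p = 0.00439), below the size required. The adjusted p was 1 with DESeq2 and without the replicate block and 0.0713 without the highest doublet scores, and the libraries gave -0.078 and -0.18. FTH1 was at 9191 and 10010 CPM in detected cells, against 9179 and 9817 CPM in undetected cells. Its fitted log2 fold change was -0.04 ± 0.02 (edgeR adjusted p = 0.822), of the opposite sign to the CPM because the fit scales the libraries by TMM. LCN2 was at 25.7 and 129 CPM in detected cells, against 35.5 and 48.1 CPM in undetected cells. Its fitted log2 fold change was 0.73 (edgeR adjusted p = 0.967), with opposite signs in the libraries. Without the highest doublet scores it was 0.76 with an edgeR adjusted p of 2.98e-05, and again LCN2 was not called. In library 2, 4 of the 62 detected cells held 76.0% of the thinned LCN2 UMIs of that class.

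**Figure D4:**
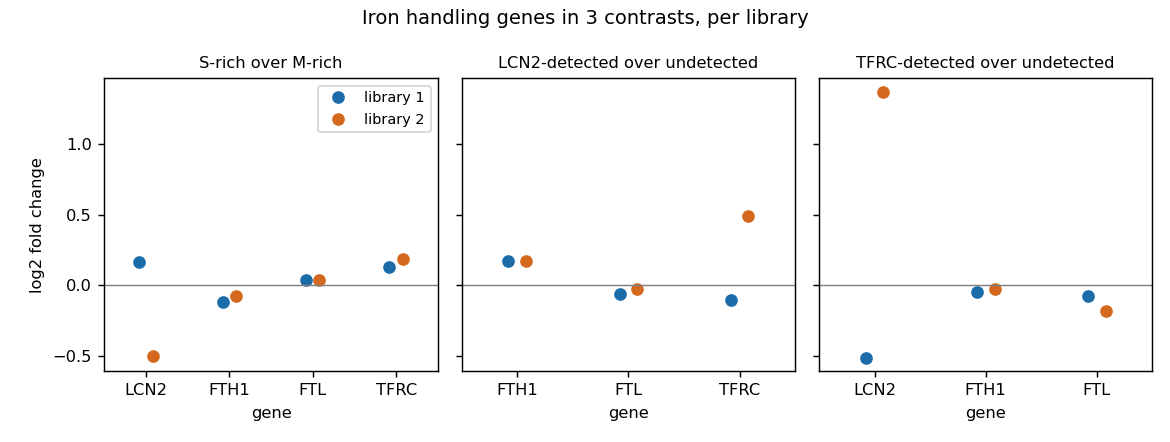
Log2 fold change of each gene in library 1 and library 2 for S-rich over M-rich cycling cells, and for LCN2-detected over undetected and TFRC-detected over undetected non-cycling cells (1 point per library). FTH1 and FTL lie close to 0 with the same sign in both libraries in all 3 panels, while LCN2 has opposite signs where it is shown and TFRC has opposite signs with LCN2 detection.

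Genes varying most like each member were sought among 7342 named genes of at least 10 CPM, by Pearson's r over non-cycling cells at 5000 UMIs (1881 and 2498 cells of 1 library each, ranked by the lower r). LCN2 was nearest to COL1A1, a chain of type I collagen (r of 0.21 and 0.24), the chemokine gene CXCL14 (0.19 and 0.21), SELENOM, a selenoprotein of the endoplasmic reticulum (0.19 and 0.17), PSAT1 of serine synthesis (0.14 and 0.16) and DCLK1, a microtubule-linked kinase (0.14 and 0.17). FTH1 was nearest to genes of translation: EEF1A1 (0.40 and 0.39), RPS2 (0.43 and 0.38), RPL10 (0.38 and 0.41), RPLP0 (0.53 and 0.37) and RPS12 (0.47 and 0.36). FTL was nearest to RPS12 (0.31 and 0.36), LGALS1, a galectin (0.29 and 0.28), RPL10 (0.27 and 0.28), VIM, an intermediate filament gene (0.27 and 0.39) and RPL14 (0.26 and 0.29).

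FTH1 and FTL correlated with each other less than with these (0.17 and 0.16). For TFRC the highest were CEP95 (0.061 and 0.063), CEP135 (0.060 and 0.070), PALLD (0.091 and 0.057), NUP153 (0.057 and 0.056) and WWTR1 (0.061 and 0.056), values so low in sparse counts that they name no partner. LCN2 and TFRC had an r of 0.012 and 0.068. Cells share a library and a fixed total, so abundant genes are easier to correlate than scarce ones, and no p is given.

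The pathway around the members was read from 8 lists with 81 of 85 genes found in the tables. In cycling against non-cycling cells 17.6% of 17012 genes were called (8.2% higher and 9.4% lower), and of 43 tested genes in the 6 lists of iron and heme 7 fell and 0 rose with edgeR (0 rose with DESeq2 either), with 23 at an unadjusted p under 0.05. Their median log2 fold change was -0.06, beside -0.01 over all genes. DESeq2 called 5 of the lists' genes lower. The lists were drawn with results of these data known, and nothing particular to them is read from the counts.

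Of 10 uptake and transfer genes 4 fell and 0 rose (9 had an unadjusted p under 0.05, and DESeq2 called 0 higher). STEAP3, the ferrireductase that readies endosomal iron for transport, fell by 1.47 ± 0.14 on the log2 scale (edgeR adjusted p = 6.55e-07). It was at 1.20 and 2.17 CPM in cycling cells, against 3.69 and 5.21 CPM in non-cycling cells. LRP1, a receptor of heme bound to hemopexin among many ligands, fell by 0.64 ± 0.05 and was at 91.2 and 107 CPM in cycling cells, against 134 and 162 CPM in non-cycling cells. The ferritin receptor gene SCARA5 (-1.01 ± 0.31) and TFR2, the second transferrin receptor (-0.94 ± 0.33), also fell but were under 1 CPM in every class. The 6 others ranged between -0.63 and 0.32, with the iron chaperone PCBP1 the highest, at 278 and 269 CPM in cycling cells, against 208 and 213 CPM in non-cycling cells.

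Among 4 genes of iron release and export SLC40A1, which encodes ferroportin, the cell's iron exporter, fell by 1.22 ± 0.08 (edgeR adjusted p = 4.67e-09). It was at 8.07 and 7.42 CPM in cycling cells, against 17.8 and 16.8 CPM in non-cycling cells. NCOA4, which delivers ferritin for breakdown, was at 44.2 and 55.2 CPM in cycling cells, against 43.9 and 55.7 CPM in non-cycling cells (-0.06 ± 0.05, edgeR adjusted p = 0.372). Of 3 siderophore genes SLC22A17, which encodes a receptor of LCN2, fell by 0.62 ± 0.07 (edgeR adjusted p = 7.59e-06) and was at 12.7 and 11.7 CPM in cycling cells, against 17.8 and 18.0 CPM in non-cycling cells. BDH2, a short-chain dehydrogenase gene, did not reach the size required (-0.36 ± 0.06). In these lists 0 genes rose with edgeR or DESeq2, with 1 and 2 genes at an unadjusted p under 0.05.

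Of 5 iron sensing genes 0 were called with edgeR or DESeq2, and 1 had an unadjusted p under 0.05. ACO1, which encodes iron regulatory protein 1, was at 40.6 and 54.8 CPM in cycling cells, against 41.5 and 55.0 CPM in non-cycling cells (-0.08 ± 0.05). IREB2, which encodes iron regulatory protein 2, was at 10.5 and 14.8 CPM in cycling cells, against 9.28 and 12.3 CPM in non-cycling cells (0.17 ± 0.08, edgeR adjusted p = 0.0877). Of 9 heme genes SLC48A1, a heme transporter, fell by 0.76 ± 0.10, at 4.51 and 4.20 CPM in cycling cells, against 7.34 and 6.82 CPM in non-cycling cells, and 0 rose with edgeR or DESeq2 (3 had an unadjusted p under 0.05). Of 12 genes of mitochondrial iron and iron-sulfur clusters 0 were called with edgeR or DESeq2, with 7 at an unadjusted p under 0.05. HSCB, a co-chaperone of cluster assembly, was the nearest to a call, at 44.4 and 39.8 CPM in cycling cells, against 30.5 and 27.6 CPM in non-cycling cells (0.48 ± 0.06).

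**Figure D5:**
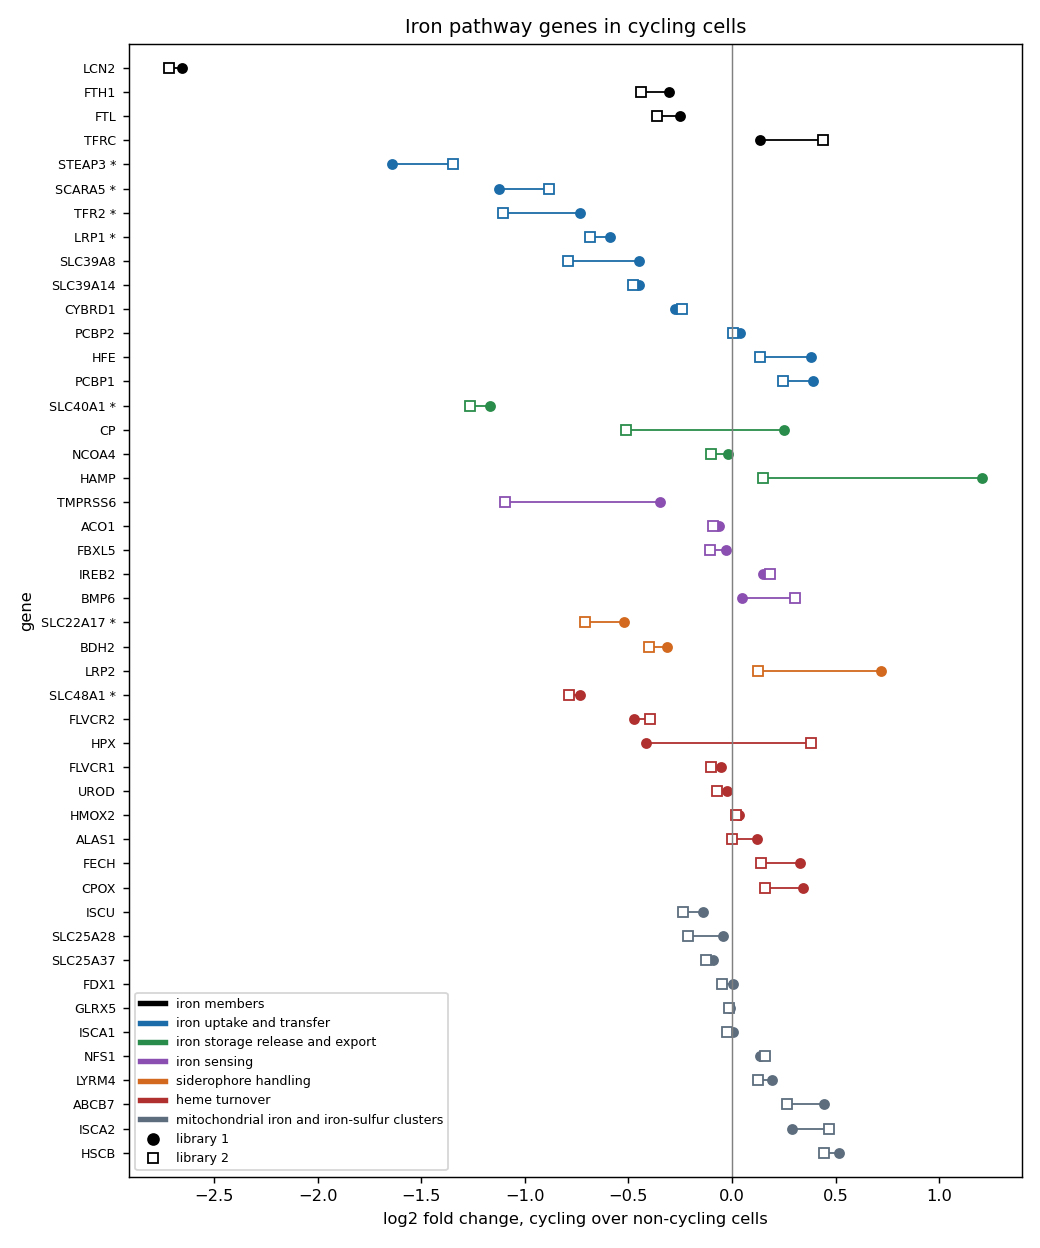
Log2 fold change of cycling over non-cycling cells in library 1 (filled circles) and library 2 (open squares) for the 4 members and the tested genes of the iron and heme lists but 1, coloured by list. An asterisk marks the 7 pathway genes that passed the test, all lower in cycling cells, with SLC40A1 at -1.22 and STEAP3 at -1.47, and members carry no mark because they were not tested here.

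Of 20 NF-kB and acute phase genes, the group of which LCN2 is a known target, 8 fell and 12 were not called with edgeR. With edgeR and with DESeq2 0 rose, and over all genes 9.4% fell and 8.2% rose with edgeR. For 18 the unadjusted p was under 0.05 in edgeR, and the median was -0.46, beside -0.01 over all genes. This list too was drawn with results of these data known, so nothing particular to it is read from the counts. VCAM1, a leukocyte adhesion molecule, was at 16.04 and 15.05 CPM in cycling cells, against 47.9 and 52.2 CPM in non-cycling cells (-1.75 ± 0.07). CEBPD, a transcription factor of the acute phase, was at 673 and 609 CPM in cycling cells, against 1134 and 1036 CPM in non-cycling cells (-0.82 ± 0.05). The chemokine gene CCL20 (-1.42 ± 0.14), IL6 (-0.67 ± 0.06) and TNFAIP3, a brake on NF-kB (-0.64 ± 0.06), also fell, as did the scarce genes SAA3 (-2.001 ± 0.34), C3 (-1.04 ± 0.33) and HP (-1.04 ± 0.22), the last encoding the hemoglobin binder haptoglobin. CCL2 was at 1314 and 775 CPM in cycling cells, against 1333 and 613 CPM in non-cycling cells, with opposite signs.

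Of 13 antioxidant genes, several of them known with the ferritins as targets of the factor NRF2, 1 rose and 1 fell with edgeR. DESeq2 also called 1 higher and 1 lower, and 9 had an unadjusted p under 0.05 in edgeR. Over all genes 8.2% rose and 9.4% fell with edgeR, and nothing about the list is read from these counts. GCLM, of glutathione synthesis, was at 18.7 and 18.9 CPM in cycling cells, against 12.5 and 12.8 CPM in non-cycling cells (0.51 ± 0.07). SLC7A11, the cystine importer, was at 48.1 and 83.9 CPM in cycling cells, against 62.5 and 123 CPM in non-cycling cells (-0.53 ± 0.06). GPX4, which repairs oxidised lipids, did not reach the size required, at 605 and 615 CPM in cycling cells, against 766 and 767 CPM in non-cycling cells (-0.39 ± 0.04).

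These calls rest on the library as a replicate block: without it 3 genes of the 8 lists fell (SLC40A1, VCAM1 and CEBPD) and 0 rose, and DESeq2 with the block did not call TFR2, SCARA5, C3 or HP. With classes set from full counts, where non-cycling cells were shallow (medians of 22697 and 21793.5 UMIs in cycling and 7984 and 10911 in non-cycling cells), the calls of SLC22A17, SLC48A1, GCLM, IL6, C3 and HP were lost and TFR2 and CCL20 had the opposite sign. In cells of middle depth TFR2, GCLM, SLC7A11, TNFAIP3, IL6 and C3 were not called, and SAA3 was not called without the highest doublet scores (edgeR adjusted p = 0.196).

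The pathway lists were also read in the other contrasts. Between S-rich and M-rich cells 2 of 73 tested genes rose and 0 fell with edgeR (32 had an unadjusted p under 0.05, and DESeq2 called 0 in either direction), beside 7.24% of all genes. LRP2, one of them and a receptor that also takes up LCN2, rested on 46 and 17 UMIs in S-rich cells and 14 and 13 in M-rich cells (1.10 ± 0.39, edgeR adjusted p = 0.0422). It was not called by DESeq2 or without the replicate block.

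Between LCN2-detected and undetected cells 1 of 72 genes rose and 1 fell, beside 2.42% of all genes. Without the replicate block neither was called, and DESeq2 called VCAM1 but not NQO1. VCAM1 was at 60.7 and 73.7 CPM in LCN2-detected cells, against 46.5 and 49.0 CPM in undetected cells (0.54 ± 0.07, edgeR adjusted p = 0.000118). NQO1, an NRF2 target, was at 8.94 and 8.74 CPM in detected cells, against 13.6 and 15.1 CPM in undetected cells (-0.68 ± 0.15, edgeR adjusted p = 0.00886). Of the 20 NF-kB and acute phase genes VCAM1 was the 1 called, with 6 at an unadjusted p under 0.05. CEBPD (0.20, edgeR adjusted p = 0.000156) and CXCL2 (-0.28, edgeR adjusted p = 0.00314) passed the p but not the size required. Between TFRC-detected and undetected cells 0 of 72 genes were called with edgeR or DESeq2, beside 0.195% of all genes, with 11 at an unadjusted p under 0.05. The shares called in these contrasts were of the order of those over all genes or rest on 0 to 2 genes, and nothing about the lists is read from them.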

How the data were processed

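The authors deposited raw UMI counts, whole numbers for each gene in each barcode. Per the file headers the software was Cell Ranger 7.0.0, which the submitters' processing notes give as 7.00 with Sscrofa11.1 as build. Chemistry was Chromium Single Cell 3' v3.1 per the labels. The annotation is not given in the sources used here. Members and lists were chosen with earlier results of these data known. Cells had at least 1000 genes; a library held 209737159 or 245421850 UMIs. Scrublet (scanpy 1.11.5, expected rate 0.08) called 0% and 6.26% of cells, so it was taken not to have worked in library 1, and no doublets were removed. UMIs summed per library and class were tested with edgeR 4.0.16 (TMM, filterByExpr, robust quasi-likelihood F test) in R 4.3.3, library as replicate block, both classes coming from each library. With 1 residual degree of freedom per gene, p-values lean on the spread pooled over genes. The fits were tested on simulated counts. DESeq2 1.42.0 and other settings were alternatives. CPM are unscaled by TMM. Named genes were the members, up to 10 called pathway genes per comparison by size of change, and 5 genes of highest r per member; others were named after their values were seen, where a count of 5 or fewer called for it or to give a list's limits. A pathway gene is counted in its list but not reported here.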

Additional observations from a re-analysis of the deposited data

Results flagged for a closer look

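Barcodes with under 1000 genes, which no comparison used, also held UMIs of all members, above the limit that a count of 0 allows (3 counts, or 1.68 CPM in library 1 and 3.35 CPM in library 2). FTH1 was at 7061 and 6399 CPM in these 1692 and 972 barcodes and FTL at 3944 and 3258 CPM. LCN2 was at 11.7 and 24.6 CPM on 21 and 22 UMIs, and TFRC at 11.2 and 8.94 CPM on 20 and 8 UMIs. What these barcodes hold was not tested.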

How the results depend on the processing

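Without the replicate block the pathway calls were 0 higher and 3 lower for cycling cells, 0 and 0 between S-rich and M-rich cells, and 0 and 0 by LCN2 detection. Without the 8% highest doublet scores 2 genes were higher in cycling cells, 1 in S-rich cells, and 4 higher and 2 lower with LCN2. At 5 core genes 3 were higher in cycling cells, and with classes from full counts 10 were lower. DESeq2 called 0 higher in S-rich cells and 0 lower with LCN2. Between narrower ends of that ranking 1 was higher and 1 lower. DESeq2 size factors gave 2 higher with LCN2, and no filter gave 2 higher and 2 lower. In cells of middle depth, ranked by UMIs in each library, an alternative chosen after seeing the data, 1 was higher and 1 lower in S-rich cells, and LCN2 there turned to 0.066. Cycling over non-cycling, LCN2 was -3.02 without the highest doublet scores, -2.81 at 5 core genes and -2.58 with classes from full counts. With those classes FTH1 was -0.12, FTL -0.065, TFRC 0.054, TFR2 0.57 and CCL20 0.33. By single library, values with no test, LCN2 ranged from -0.50 to 0.16 in S-rich cells and from -0.51 to 1.37 with TFRC detection, and TFRC from -0.11 to 0.49 with LCN2 detection. The causes were not tested. Over all genes, calls higher and lower were 1395 and 1599 for cycling cells (319 and 60 without the block, 1046 and 1029 with DESeq2), 752 and 360 for S-rich cells (0 and 0, 279 and 237), 211 and 137 with LCN2 (0 and 0, 123 and 33) and 20 and 8 with TFRC (0 and 0, 3 and 0, and 14 and 14 with no filter). No call could be made with 1 library, and at 3 LCN2 UMIs, at 2 TFRC UMIs, or for TFRC in cells of middle depth, classes fell under 50 cells and were not run. Low counts of TFRC and of LCN2 in cycling cells limit those values.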

Other observations

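Outside the lists, several genes differed between LCN2-detected and undetected non-cycling cells. They were picked after their values were seen, from those with the largest changes. LCN2, placeholder names and genes with a mean of the 2 class levels under 10 CPM in either library were left out. A gene could thus pass through the class where it was high. Of the rest 128 genes were higher and 65 lower in detected cells (edgeR quasi-likelihood, Benjamini-Hochberg). The number of tested genes past this filter was not counted, while over all 14370 tested genes 1.47% were called higher and 0.953% lower. ACTA2, smooth muscle actin, was at 327 and 426 CPM in LCN2-detected cells, against 107 and 168 CPM in undetected cells (log2 fold change 1.495 ± 0.05, n = 2 libraries). LOXL2, a collagen cross-linking enzyme, was at 35.2 and 88.4 CPM in detected cells, against 14.6 and 25.9 CPM in undetected cells (1.65 ± 0.10), and its relative LOXL4 at 16.3 and 22.2 CPM, against 5.02 and 8.16 CPM (1.57 ± 0.14).

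CXCL14, a chemokine gene, was at 71.0 and 100.1 CPM in detected cells, against 26.8 and 31.2 CPM in undetected cells (1.61 ± 0.08). ALDH1A3, which makes retinoic acid, was at 48.8 and 67.8 CPM in detected cells, against 16.8 and 26.0 CPM in undetected cells (1.48 ± 0.08). Among the lower genes were MMP1, a collagenase, at 8.13 and 7.81 CPM in detected cells, against 21.2 and 13.8 CPM in undetected cells (-1.02 ± 0.16), and STMN1, a microtubule regulator of dividing cells, at 56.9 and 32.8 CPM, against 92.1 and 69.1 CPM (-0.85 ± 0.09). The part of cycle differences left among non-cycling cells was not tested. Without the replicate block edgeR called 0 genes in either direction in this contrast over all genes, with 433 at an unadjusted p under 0.05, and DESeq2 with the block called 123 higher and 33 lower.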
